A study of Homo sapiens with 4 samples.

Results

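The HLA class I antigen presentation genes examined here are *HLA-B*, *HLA-C*, *HLA-E*, *HLA-F*, *B2M*, *TAP1*, *TAP2*, *TAPBP* and *NLRC5*. They were taken by symbol from the count table, where all 9 members were found among 28278 gene symbols, and all 9 were among the 15150 genes with enough counts to be tested. The libraries are labelled as HepG2, an established line of human liver cancer, but most markers of that line given below go against this label. By the labels and the paper, control cells carried Cas9 and a control sgRNA, and the other cells carried Cas9 and an sgRNA against *USP22*. The paper describes lentiviral delivery and stably infected populations, and no single clone is described. Both groups had received 10 µM Sorafenib, a multikinase inhibitor used against liver cancer, for 24 h, so that untreated cells are not part of the comparison. Polyadenylated RNA was sequenced in 2 libraries per group, and the question is which transcripts differ between Sorafenib-treated cells with and without the *USP22* guide.

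Class I molecules display peptides from inside the cell to CD8 T cells and natural killer cells. Each consists of a heavy chain, encoded by an *HLA* gene, and the light chain β2-microglobulin, encoded by *B2M*. Peptides cut by the proteasome are pumped into the endoplasmic reticulum by the TAP1 and TAP2 transporter, and tapasin (*TAPBP*) holds the empty heavy chain next to that transporter while peptide is loaded. NLRC5 is a nuclear protein that switches on class I promoters through the factors bound at their X and Y boxes, and interferon and NF-κB act on the same promoters through an ISRE and a κB site. Hepatocytes normally show little class I at rest and raise it on exposure to interferon.

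The libraries held 62030307 to 64728272 counts. A count of 0 allows up to 3 counts, 0.0457 to 0.0492 CPM (counts scaled to the library size after TMM normalisation) by library, which covers counting error only. Nothing in the labels says that the libraries of a group came from separate cultures, so the p-values measure the spread between these libraries, which may be technical. The *USP22* transcript itself was counted 16450 and 16537 times in control and 20279 and 20368 times in the libraries labelled *USP22* knockout. It was 1.17-fold higher there rather than reduced (log2 fold change 0.22, standard error 0.0341, edgeR quasi-likelihood adjusted p = 0.000394). The paper checked the knockout by Western blot of the protein, which transcript counts do not measure. All directions below therefore follow the label. Of 24 markers of hepatocytes and HepG2 cells, 13 were at 0 in all 4 libraries, *ALB*, *APOA1* and *TTR* among them. *AFP* and *HNF4A* did not exceed 9 counts in any library. The 3 markers with enough counts to be tested were *FOXA1* (764 to 1030 counts), *CEBPA* (336 to 510) and *ASGR1* (106 to 197). All 24 summed to 21.1 to 25.7 CPM, while the fibroblast collagen gene *COL3A1* alone had 499 to 576 CPM. Most of these markers go against the HepG2 label, so the cells are named here only as labelled. Of 10 immune cell markers, 6 were at 0 throughout, *CD3E* and *MS4A1* among them, and *CD68* made up nearly all of their summed level, which was 73.8 to 74.2 CPM in control and 44.2 to 47.2 CPM in labelled knockout libraries. Of 6 fibroblast markers none was at 0 in all 4 libraries, but *COL1A2* had 7 counts in labelled knockout replicate 1 and 0 in each other library. The sum of the 6 was 641 to 645 CPM in control and 900 to 901 CPM in labelled knockout libraries, most of it from *COL3A1*. *DCN* and *LUM* were called higher and *PDGFRB* lower. Endothelial markers summed to at most 0.657 CPM in any library. The part of these markers in the class I results was not tested.

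The promoters of the members show which regulatory letters they share, and are given here because *HLA-B*, *HLA-C*, *HLA-F*, *B2M* and *TAP1* had higher levels in both labelled knockout libraries than in both controls, while *TAP2* and *TAPBP* did not. RefSeq (GRCh38.p14) sequences were matched for 7 of the 9 members. *HLA-E* and *NLRC5* had no entry. Each line gives the 185 bases before the annotated start, 5′ to 3′ on the strand of the gene, and for *TAP1* the upstream of its 2 starts is shown. Capitals mark matches on either strand to the interferon element ISRE, searched as GAANNGAAA and GAAANNGAA, to a κB site, searched as GGNNNTTCC, to the X2 box core TGACG and to the Y box ATTGG. The forms can overlap each other, and they were chosen after the sequences were seen.
*HLA-B*, chr6:31357180-31357364, minus strand: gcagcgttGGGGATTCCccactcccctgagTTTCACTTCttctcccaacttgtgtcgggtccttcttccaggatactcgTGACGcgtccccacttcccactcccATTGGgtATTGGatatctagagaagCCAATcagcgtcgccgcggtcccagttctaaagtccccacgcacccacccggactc
*HLA-C*, chr6:31272093-31272277, minus strand: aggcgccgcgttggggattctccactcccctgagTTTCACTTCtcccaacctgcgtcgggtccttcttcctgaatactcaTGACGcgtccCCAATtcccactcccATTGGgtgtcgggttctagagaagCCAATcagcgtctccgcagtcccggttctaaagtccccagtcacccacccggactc
*HLA-F*, chr6:29723249-29723433, plus strand: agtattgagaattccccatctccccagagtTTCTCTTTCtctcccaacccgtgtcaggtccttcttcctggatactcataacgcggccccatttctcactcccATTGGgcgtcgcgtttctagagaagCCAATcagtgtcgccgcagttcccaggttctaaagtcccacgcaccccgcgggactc
*B2M*, chr15:44711332-44711516, plus strand: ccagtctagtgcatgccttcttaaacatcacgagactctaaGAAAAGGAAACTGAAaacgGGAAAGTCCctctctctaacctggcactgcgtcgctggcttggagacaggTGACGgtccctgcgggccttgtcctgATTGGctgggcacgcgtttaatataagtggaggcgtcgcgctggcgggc
*TAP1*, chr6:32853705-32853889, minus strand: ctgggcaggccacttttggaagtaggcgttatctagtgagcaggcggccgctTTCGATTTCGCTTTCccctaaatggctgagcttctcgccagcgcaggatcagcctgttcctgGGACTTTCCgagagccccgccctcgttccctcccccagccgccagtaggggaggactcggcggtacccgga
*TAP2*, chr6:32838740-32838924, minus strand: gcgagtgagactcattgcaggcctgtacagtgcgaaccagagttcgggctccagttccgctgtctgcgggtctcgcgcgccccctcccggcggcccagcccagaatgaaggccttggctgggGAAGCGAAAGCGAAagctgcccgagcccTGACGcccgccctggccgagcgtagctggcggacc
*TAPBP*, chr6:33314079-33314263, minus strand: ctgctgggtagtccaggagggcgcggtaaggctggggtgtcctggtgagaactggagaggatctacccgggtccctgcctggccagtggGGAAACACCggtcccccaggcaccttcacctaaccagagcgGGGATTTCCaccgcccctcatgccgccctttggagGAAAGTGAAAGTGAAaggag

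An ISRE form was present in all 7 promoters shown, against 12.4% of the 35116 RefSeq promoters searched over 250 bases before the start. *B2M*, *HLA-F* and *TAP1* held the second form, *HLA-B* and *HLA-C* the first, and *TAP2* both. The stretch before the other start of *TAP1* held none of these matches. *TAPBP* held the second form at a pair of overlapping places, the nearer ending at position -6. The TGACG core followed 15 to 25 bases later by ATTGG on the same strand was found in *HLA-B*, *HLA-C* and *B2M*, and in 0.219% of all promoters. That spacing, like the forms, was not fixed before the sequences were seen, so these shares are a description and not a test. *HLA-F* had the Y box at the corresponding place but no TGACG. A κB match was present in *HLA-B*, *B2M*, *TAP1* and *TAPBP*, and in 17.1% of all promoters, while the X2 core alone was in 21.2% and the Y box alone in 32.0%. These are letter matches in the reference sequence and say nothing of binding in these cells.

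Of the 9 members, 3 were called higher in the labelled knockout libraries (*HLA-F*, *HLA-B* and *NLRC5*) and 0 were called lower. A call required an adjusted p below 0.05 from edgeR's quasi-likelihood test and a fold change of at least 1.5. Across all tested genes, 8.88% were called higher and 7.25% lower. At the adjusted p alone, 6 members were higher, with *HLA-C*, *TAP1* and *B2M* in addition, and 2 were lower, *HLA-E* and *TAPBP*, against 26.8% and 25.8% of all tested genes. *TAP2* passed in neither direction. The groups did not overlap for 6 members with labelled knockout above control and for 2 below, where 38.3% and 37.6% of all tested genes were so placed. The median log2 fold change of the members was 0.44, and that of all tested genes was 0.00091.

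**Figure D1:**
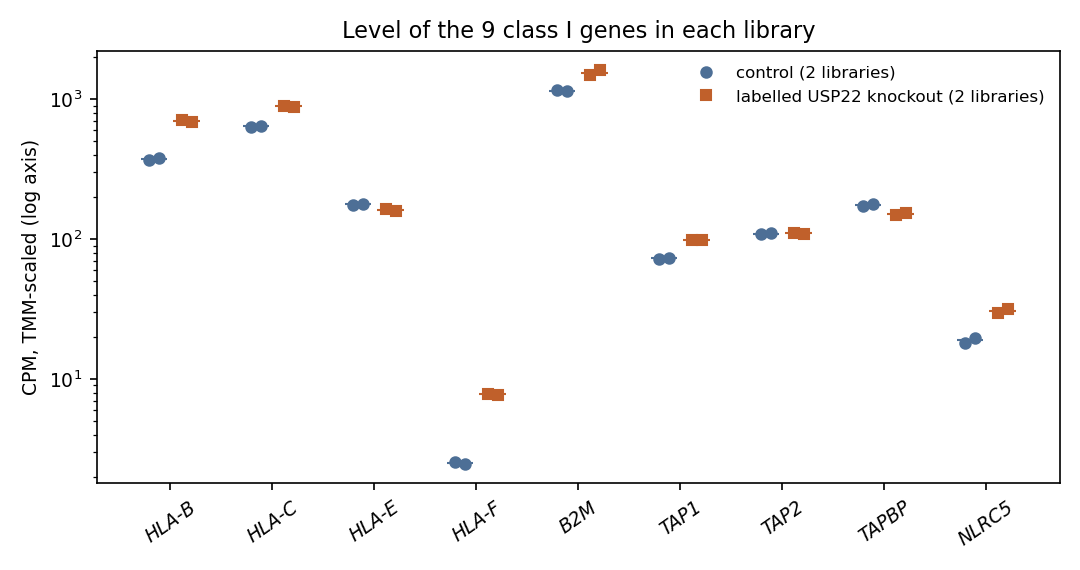
CPM of the 9 class I genes in each library on a log axis. Circles are the 2 control libraries, squares the 2 libraries labelled *USP22* knockout, and short lines the group means. The pairs of *HLA-B*, *HLA-F* and *NLRC5* are clearly apart, while those of *TAP2* overlap.

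Among the classical heavy chains, which present peptides to CD8 T cells, *HLA-B* showed the larger difference. In hg38 it spans 31353872 to 31367067 of chromosome 6, minus strand. Its level was 366 and 378 CPM in the control libraries and 709 and 685 CPM in the labelled knockout libraries. Both labelled knockout libraries were far above both controls, and the pair within each group lay close together. The means were 372 ± 8.17 (SD, n = 2) and 697 ± 16.8 CPM (SD, n = 2), a 1.87-fold difference (log2 fold change 0.91, standard error 0.0344, edgeR quasi-likelihood adjusted p = 5.6e-08).

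*HLA-C* lies before *HLA-B* on the same strand, from 31268749 to 31272130, with 81741 bases between them. It had 636 and 647 CPM in control and 903 and 880 CPM in labelled knockout libraries. The groups were apart here too, but by less than for *HLA-B*, and the 1.39-fold difference was below the 1.5-fold threshold (log2 fold change 0.47, standard error 0.0311, edgeR quasi-likelihood adjusted p = 1.61e-06). When GC content and length were corrected for, *HLA-C* reached 0.67 on the log2 scale and was called higher, and *HLA-B* reached 1.10. The log2 ratio of *HLA-B* to *HLA-C* within a library does not depend on how libraries are scaled. It was -0.79 and -0.78 in control and -0.35 and -0.36 in labelled knockout libraries. The groups did not overlap, and the difference of 0.43 had an exact permutation p = 0.333 (two-sided), the smallest that 2 libraries against 2 allow.

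The nonclassical heavy chains differed from each other. *HLA-F*, whose product is found largely inside cells and on activated lymphocytes and is bound by natural killer cell receptors, spans 29722775 to 29738528 on the plus strand and had the fewest counts of the 9 genes. Its counts were 154 and 155 in control and 516 and 493 in labelled knockout libraries. Both labelled knockout libraries were about equally high, and the 3.09-fold difference was the largest among the members (log2 fold change 1.63, standard error 0.141, edgeR quasi-likelihood adjusted p = 9.47e-06). The antisense gene *HLA-F-AS1* overlaps it on the other strand and had 107 and 149 counts in control and 98 and 167 counts in labelled knockout libraries. Its groups overlapped. The strand setting of the counting is not stated, so reads of the overlapping stretch cannot be told apart between these genes.

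*HLA-E*, whose product presents leader peptides of other class I chains to the natural killer receptor NKG2A, lies on the plus strand from 30489509 to 30494194. It had 176 and 178 CPM in control and 164 and 160 CPM in labelled knockout libraries. Both labelled knockout values were slightly below both controls, by 1.09-fold (log2 fold change -0.12, standard error 0.0367, edgeR quasi-likelihood adjusted p = 0.017). This small difference no longer passed the adjusted p threshold with library size alone (edgeR adjusted p = 0.121), after the GC and length correction (limma, 0.701), or without control replicate 2 (0.0653) or *USP22* knockout replicate 2 (0.0847). The log2 ratio of *HLA-E* to *HLA-B* was -1.06 and -1.09 in control and -2.11 and -2.10 in labelled knockout libraries, so the groups were apart by -1.03 (exact permutation p = 0.333, two-sided).

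**Figure D2:**
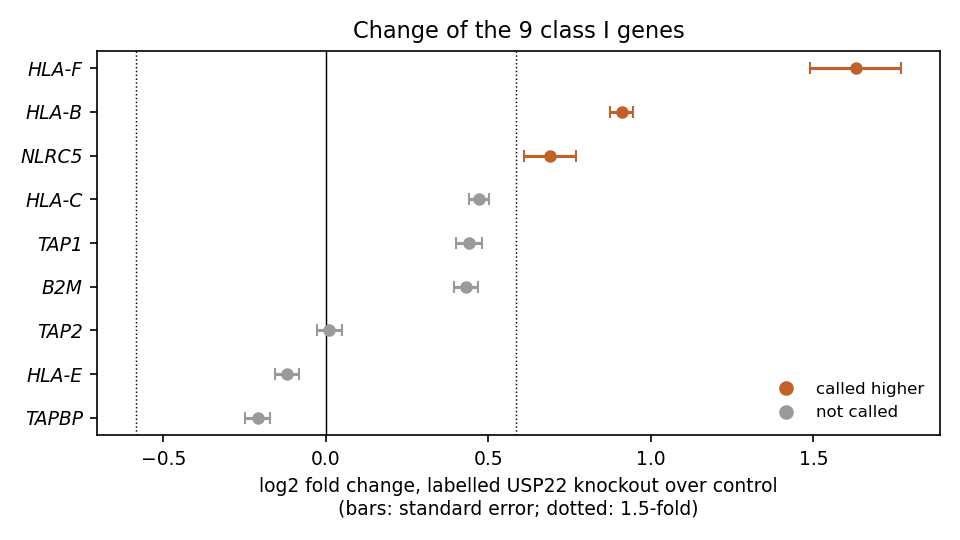
Log2 fold change of each class I gene, labelled *USP22* knockout over control, with bars for the standard error and dotted lines at 1.5-fold. *HLA-F*, *HLA-B* and *NLRC5* lie beyond the line at 1.63, 0.91 and 0.69, *HLA-C*, *TAP1* and *B2M* between 0.43 and 0.47, and *TAPBP* lowest at -0.21.

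Heavy chain genes are similar in sequence, and reads can be shared between them and with their pseudogenes. The 5 listed copies *HLA-G*, *HLA-H*, *HLA-J*, *HLA-L* and *HLA-V* together had 15 to 27 counts in any library, against 71950 to 117239 counts for *HLA-B*, *HLA-C*, *HLA-E* and *HLA-F* together. The sum over these 4 genes does not depend on how reads are split among them. It was 1193 ± 18.2 CPM (SD, n = 2) in control and 1758 ± 36.4 CPM (SD, n = 2) in labelled knockout libraries, 1.47-fold higher. As a share of the counts of the 4 genes, *HLA-B* made up 31.0% and 31.3% in control and 39.7% and 39.5% in labelled knockout libraries. The share of *HLA-C* was 53.9% and 53.7% in control and 50.6% and 50.8% in labelled knockout libraries, and that of *HLA-E* was 14.9% and 14.8% against 9.22% and 9.23%. *HLA-F* made up 0.214% and 0.206% in control and 0.44% and 0.441% in labelled knockout libraries. The shares of *HLA-B* and *HLA-F* were thus above control in both labelled knockout libraries, and those of *HLA-C* and *HLA-E* were below it. How reads shared between these genes were counted is not given in the sources used here, so the split between single heavy chain genes is uncertain to that extent.

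**Figure D3:**
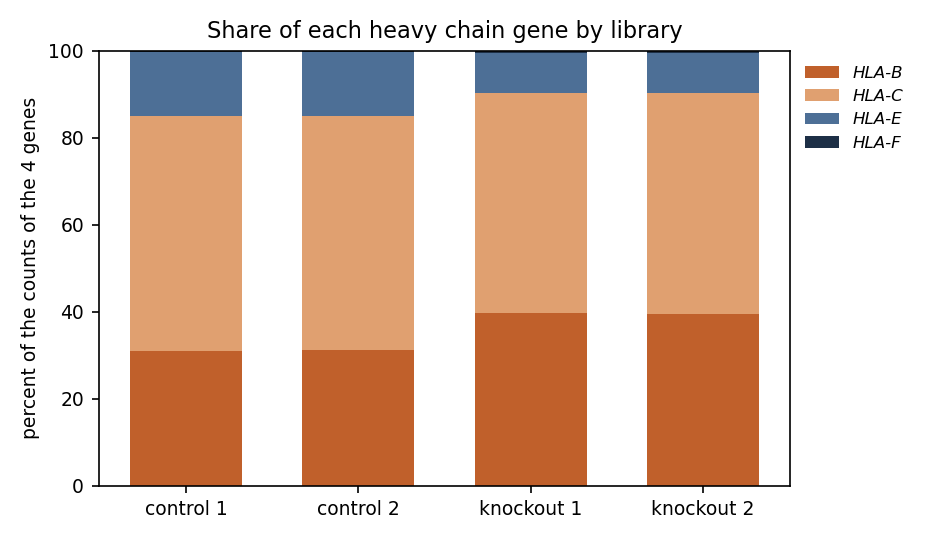
Percent of the counts of *HLA-B*, *HLA-C*, *HLA-E* and *HLA-F* taken by each gene in the 4 libraries. The *HLA-B* segment is larger in both labelled knockout libraries (39.7% and 39.5%) and the *HLA-E* segment smaller (9.22% and 9.23%), while *HLA-F*, at most 0.441%, is barely visible.

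*B2M* encodes the light chain shared by all these heavy chains and lies on the plus strand of chromosome 15 from 44711358 to 44718851, away from the *HLA* genes. It had the most counts of the 9, and its level was 1162 and 1150 CPM in control and 1494 and 1611 CPM in labelled knockout libraries. Both labelled knockout libraries were above both controls, and they differed from each other more than the controls did. The 1.34-fold difference did not reach 1.5-fold (log2 fold change 0.43, standard error 0.0369, edgeR quasi-likelihood adjusted p = 9.53e-06). Set against *B2M* within each library, *HLA-B* was higher by 0.48 on the log2 scale in the labelled knockout libraries, *HLA-F* by 1.19 and *NLRC5* by 0.27. *HLA-C* and *TAP1* differed by 0.05 and 0.015 in this ratio and their groups overlapped (exact permutation p = 1, two-sided). *HLA-E*, *TAP2* and *TAPBP* were lower relative to *B2M*, with differences of -0.55, -0.41 and -0.63 and groups that did not overlap. None of these 8 ratios could reach an exact p below 0.333.

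The transporter subunits, which work as a pair, were not alike. *TAP1* spans 32845209 to 32853816 of chromosome 6, minus strand, and had 72.7 and 73.1 CPM in control and 98.8 and 98.9 CPM in labelled knockout libraries. The libraries of a group were nearly equal and the groups well apart, at 1.36-fold (log2 fold change 0.44, standard error 0.0402, edgeR quasi-likelihood adjusted p = 1.34e-05). *TAP2*, on the same strand from 32821833 to 32838739, had 108 and 111 CPM in control and 111 and 109 CPM in labelled knockout libraries. Its groups overlapped (log2 fold change 0.011, standard error 0.0395, edgeR quasi-likelihood adjusted p = 0.841), and the sign of so small a value changed when control replicate 1 or *USP22* knockout replicate 1 was left out. The log2 ratio of *TAP1* to *TAP2* was -0.57 and -0.60 in control and -0.17 and -0.14 in labelled knockout libraries (exact permutation p = 0.333, two-sided). The groups did not overlap, and the difference was 0.43.

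*TAPBP*, the gene of tapasin, spans the minus strand of chromosome 6 from 33299694 to 33314284. It had 172 and 179 CPM in control and 150 and 153 CPM in labelled knockout libraries. Both labelled knockout libraries were below both controls, by 1.16-fold (log2 fold change -0.21, standard error 0.0385, edgeR quasi-likelihood adjusted p = 0.00126). The difference was under the fold change threshold in all fits that were run, and after the GC and length correction it was -0.098 (limma adjusted p = 0.0449).

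*NLRC5*, the class I transactivator, lies on the plus strand of chromosome 16 from 56989485 to 57083531. It had 1108 and 1229 counts in control and 1949 and 2043 counts in labelled knockout libraries, or 18.2 and 19.7 CPM and 29.7 and 31.6 CPM. The groups were well apart, with a 1.62-fold difference (log2 fold change 0.69, standard error 0.0791, edgeR quasi-likelihood adjusted p = 5.67e-05). In a test against a change of 1.5-fold rather than against 0, *NLRC5* did not pass (edgeR adjusted p = 0.279), whereas *HLA-B* and *HLA-F* did.

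Levels of different genes were compared per length, as CPM divided by the merged exons of each gene in kilobases. In control libraries *B2M* was highest at 370 ± 2.86 CPM per kilobase (SD, n = 2), followed by *HLA-C* at 256 ± 3.32, *HLA-B* at 80.5 ± 1.77, *HLA-E* at 60.5 ± 0.584 and *TAPBP* at 26.4 ± 0.745. *TAP1* at 15.4 ± 0.0609, *TAP2* at 10.6 ± 0.244, *NLRC5* at 1.53 ± 0.0873 and *HLA-F* at 0.581 ± 0.00673 CPM per kilobase came below. Both libraries of each gene were above both of the next in this order. The order was the same in the labelled knockout libraries, where *HLA-B* at 151 ± 3.63 CPM per kilobase was further above *HLA-E* at 55.5 ± 1.12, and *TAP1* at 20.9 ± 0.0149 came near *TAPBP* at 22.8 ± 0.369. The order depended on the length used at some places. With the median transcript length, *HLA-E* (195 CPM per kilobase) and *HLA-B* (191) overlapped in control libraries, as did *TAP2* (19.4) and *NLRC5* (18.6), and in labelled knockout libraries *NLRC5* (30.1) was above *TAP2* (19.6). With the canonical transcript, a length chosen after the data were seen, *HLA-F* (5.23) was above *NLRC5* (4.52) in labelled knockout libraries.

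Of 82 other genes of the class I pathway, chosen by role, 71 were tested, and 8 of these were called higher and 6 lower, or 11.3% and 8.45%. Over all tested genes the shares were 8.88% and 7.25%. The median log2 fold change of the 71 genes was 0.13. After the GC and length correction 5 of them were called higher.

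The immunoproteasome replaces catalytic subunits of the proteasome under interferon, and 2 of its genes are neighbours of the transporter genes. *PSMB9* overlaps *TAP1* on the opposite strand and had 227 and 288 counts in control and 411 and 410 counts in labelled knockout libraries. It was called higher, at 0.60 on the log2 scale (standard error 0.152, edgeR quasi-likelihood adjusted p = 0.00813), and since the strand setting is not stated, its reads near *TAP1* cannot be told apart from those of *TAP1*. *PSMB8*, 1977 bases from *TAP2*, had a log2 fold change of 0.54, just under 1.5-fold, and *PSMB10*, on another chromosome, of -0.0065. The proteasome activator genes *PSME1* and *PSME2* had log2 fold changes of -0.46 and -0.25, so that of the 6 genes in this group 1 was called higher and 0 lower. Among 6 peptidases that trim or destroy peptides, *LNPEP* at 0.76 and *NPEPPS* at 0.62 were called higher, and the endoplasmic reticulum peptidases *ERAP1* and *ERAP2* had log2 fold changes of 0.26 and 0.49. None of the 5 loading factors and chaperones was called, with *CANX* at 0.23, *CALR* at -0.13 and *PDIA3* at 0.17. For these 3 small groups the shares to compare with are those of all tested genes, 8.88% higher and 7.25% lower.

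Of 14 interferon signalling genes, 2 were called in each direction, or 14.3%, against 8.88% of all tested genes called higher and 7.25% lower. *IRF9*, which encodes the DNA-binding subunit of the type I interferon complex, had 2254 and 2092 counts in control and 616 and 729 counts in labelled knockout libraries (log2 fold change -1.77, standard error 0.103, edgeR quasi-likelihood adjusted p = 8.27e-07). It was called lower, with both labelled knockout libraries well below both controls. *IRF1*, an activator of class I promoters, had a log2 fold change of -0.3, under the fold change threshold. The receptor gene *IFNAR1* at 0.65 and the kinase gene *JAK2* at 0.83 were the genes called higher. Any link between these genes and the levels of the class I members was not tested.

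Of 9 factors that act at the X and Y boxes, 1 was called higher, or 11.1%, near the 8.88% of all tested genes. This was *CIITA*, the class II counterpart of *NLRC5*, at low counts of 55 and 38 in control and 121 and 117 in labelled knockout libraries (log2 fold change 1.27, standard error 0.295, edgeR quasi-likelihood adjusted p = 0.00477). The RFX subunit genes *RFX5*, *RFXAP* and *RFXANK*, whose products hold NLRC5 at the X box, had log2 fold changes of 0.33, 0.49 and -0.034. *NFYA*, *NFYB* and *NFYC*, which encode the Y box factor, lay between -0.21 and 0.057. Of 6 NF-κB genes 0 were called higher and 2 lower (33.3%), where 7.25% of all tested genes were called lower. The 2 were *NFKB2* at -0.77 and the inhibitor gene *NFKBIA* at -0.66, while *RELA* had a log2 fold change of 0.23. Of 12 tested heavy chain and class I-like genes, 16.7% were called higher and 8.33% lower, against 8.88% and 7.25% of all tested genes. The 2 called higher include *RAET1E*, which encodes a ligand of the natural killer receptor NKG2D. *FCGRT*, the heavy chain of the neonatal Fc receptor that also pairs with β2-microglobulin, was called lower. It had 213 and 197 counts in control and 123 and 93 counts in labelled knockout libraries.

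**Figure D4:**
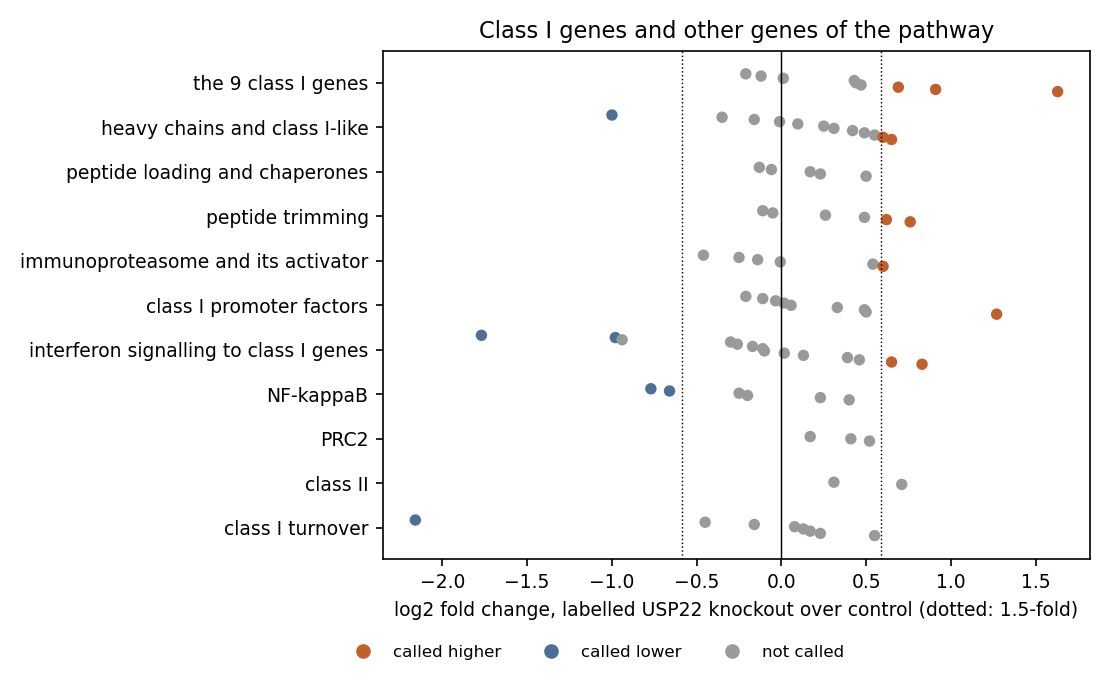
Log2 fold change of the 9 class I genes and of 71 tested genes of the pathway by role, labelled *USP22* knockout over control, 1 point per gene, with dotted lines at 1.5-fold. The class I genes reach 1.63 on the right, and *IRF9* at -1.77 lies on the left among the interferon signalling genes.

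Position is shared by 7 of the 9 members, which lie in the MHC region, taken here as tested genes that start from 29 to 34 Mb on chromosome 6. Of the 129 tested genes there, 16 were called higher and 7 lower, or 12.4% and 5.43%, against 8.88% and 7.25% of all tested genes. Without the 7 members, 14 of 122 genes (11.5%) were called higher, and the median log2 fold change was -0.069. The rest of chromosome 6 had 61 of 626 genes called higher (9.74%) and a median of 0.067. The immediate neighbours of the members were mixed. *HCG27*, next to *HLA-C*, was called higher at 1.38 with 46 to 187 counts per library, while *RPP21* and *GNL1* on either side of *HLA-E* had log2 fold changes of -0.42 and -0.17. *GABBR1*, before *HLA-F*, had -0.19, and *ZBTB22* and *RGL2*, on either side of *TAPBP*, had 0.38 and 0.089. *MIR6891* within *HLA-B*, *HLA-DOB* next to *TAP2* and *HLA-DMA* near *TAP1* had at most 75 counts in any library and were not called. On other chromosomes, *SPG11* before *B2M* had -0.12, and *TRIM69* after it had at most 14 counts, and *HERPUD1* and *CPNE2* around *NLRC5* had 0.42 and -0.39.

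**Figure D5:**
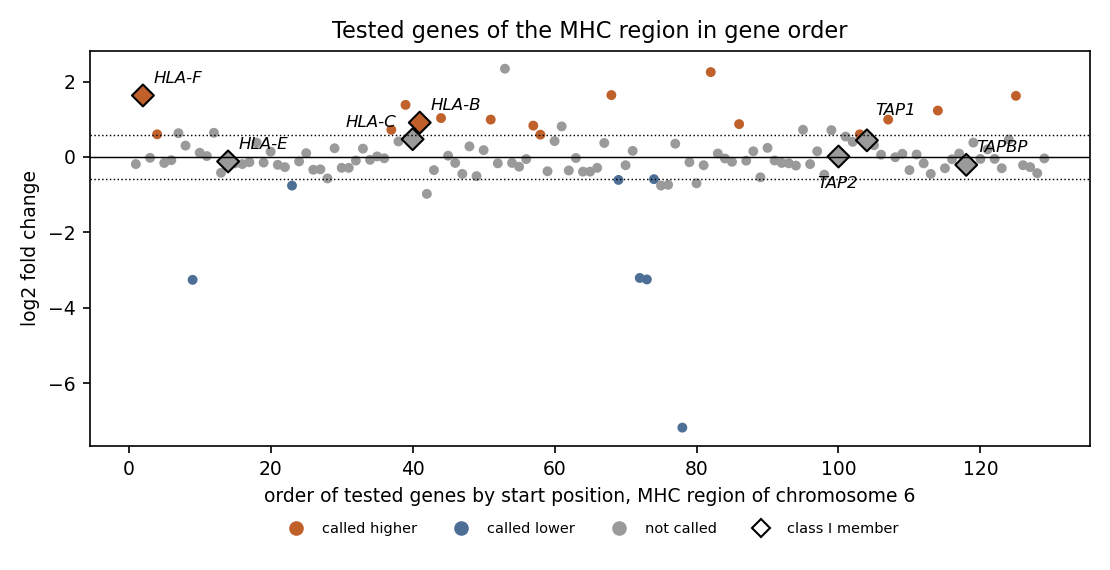
Log2 fold change, labelled *USP22* knockout over control, of 129 tested genes of the MHC region in order of their start, with class I members as diamonds and dotted lines at 1.5-fold. *HLA-F* (1.63) and *HLA-B* (0.91) lie above the line, *HLA-E*, *TAP2* and *TAPBP* near 0, and called genes are scattered along the order.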

How the data were processed

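RNA-seq was analysed in 2 libraries labelled control and 2 labelled *USP22* knockout, of Sorafenib-treated cells labelled HepG2. The knockout label was not borne out by lower *USP22* counts, and most liver markers go against the HepG2 label. The paper's check of the knockout was a Western blot of the protein, which these counts do not measure. The authors aligned reads to hg38 with HISAT2 2.2.1 and deposited whole-number gene counts from StringTie 2.2.1, not scaled to library size, and the annotation and strand setting are not given in the sources used here. How reads that map to several genes were counted is not given either, which bears on the similar heavy chain genes. Columns were assigned to samples by their names.

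The quasi-likelihood test of edgeR 4.0.16 (R 4.3.3, TMM factors, filterByExpr at 10 counts, Benjamini-Hochberg adjustment over 15150 tested genes) was used, with calls at an adjusted p under 0.05 and 1.5-fold or more. Library totals were 62030307 to 64728272 counts. The standard error is the absolute log2 fold change over the square root of F. DESeq2 1.42.0, other scaling and filters, a replicate block, a test against 1.5-fold, a lowess correction (span 0.3) for GC content and length with limma 3.58.1, and leaving out each library were alternatives. The fit was tested on simulated data. Ratios used log2 CPM with a prior count of 2. Positions and lengths came from GENCODE v44, which held 25763 of the 28278 symbols. The text names all members, their neighbours, and pathway genes that were called or adjoin a member, with a few others of each role chosen after their values were seen. Some listed genes are not reported here. The members and lists were chosen with earlier results of these data known.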

Additional observations from a re-analysis of the deposited data

How the results depend on the processing

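A fit with DESeq2, other scaling (RLE, or library size alone) and other filters (none, or a mean of 50 counts) left the 9 members' calls and directions as they were. Of 90 comparisons of a member with another setting (those that leave out a library not counted), 82 kept direction and call. Without a fold change threshold, 6 members were higher and 2 lower (*HLA-C* 0.47, *B2M* 0.43, *TAP1* 0.44, *HLA-E* -0.12 and *TAPBP* -0.21 were then called), as were 30 and 19 pathway genes, 28 and 43 genes of the MHC region, and 4057 and 3904 of all genes. With a test against 1.5-fold, *NLRC5* (0.69) was not called, and 1 pathway gene was higher and 3 lower, 6 MHC region genes were higher, and 578 of all genes were higher and 428 lower, by construction. After the GC and length correction *HLA-C* (0.67, against 0.47 in the same limma fit without it) was called, 5 pathway genes were higher, and *TAP2* turned to -0.042, and the cause was not tested.

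With 1 library left out, where the lone library of a group is assumed to vary like the others, 34 of 36 comparisons of a member kept direction and call, and *TAP2* ranged from -0.014 to 0.035 around 0.011. Libraries with the same replicate number share only that number (correlation of deviations from the group means 0.042). A fit with a replicate block called 1341 genes higher and 1100 lower, among them 3 members higher and 0 lower. At these depths *HLA-F*, with the fewest counts, carries the largest error.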

Other observations

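Class II genes, which present peptides from outside the cell, were mostly not detected. Of 11 listed, 8 were at 0 in all 4 libraries, *HLA-DRA* and *HLA-DRB1* among them, and *HLA-DMA* and *HLA-DOB* were tested without a call. The PRC2 subunit genes *EED*, *SUZ12* and *EZH2*, which encode a repressor known to act on class I genes in some tumours, had log2 fold changes of 0.52, 0.41 and 0.17, and 0 of 3 were called. Of 8 genes for class I turnover, 12.5% were called lower, against 7.25% of all tested genes. This was the ubiquitin ligase gene *MARCHF4*, with 33 and 40 counts in control and 9 and 8 counts in labelled knockout libraries. The stress ligand genes *MICA* and *MICB*, which lie near *HLA-B*, had log2 fold changes of -0.35 and -0.16, and *ULBP2* had 0.49, with 0 of these 3 called.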
